A study of Mus musculus with 3 samples.

Results

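A set of 58 mouse genes placed most of their transcript abundance on transcripts that the GENCODE annotation classes as retained_intron, in RNA from the cytosolic fraction of macrophages. The genes were selected on the measured values. A gene was taken when it had a protein-coding transcript, a level of 5 TPM or more in every library, and a mean of 50% or more of its summed TPM on retained_intron transcripts. TPM is the deposited abundance, corrected for transcript length and scaled to the same total in each library. The set came from 5435 coding genes that passed the level threshold, of which 3593 had a retained_intron transcript, and from 55450 annotated genes in all. Genes of the Srsf, Tra2 and Clk families of splicing regulators were left out by the rule. None of the 14 that passed the level threshold reached 50%, and the highest was Srsf11 at 31.3%.

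The cells were primary macrophages of strain C57BL/6J, described as bone marrow derived, and all had been stimulated for 25 min with 100 ng/ml lipid A, the part of bacterial lipopolysaccharide that TLR4 recognises. The labels gave neither age nor sex and named no genetic change. Ribosomal RNA was depleted, each library started from 1 µg of RNA, and the 3 libraries were biological replicates 1 to 3 of 1 group, linked to the same donor record. Nothing in the labels says that they came from separate animals, so the spread between them may be technical. No untreated or nuclear sample was analysed here, so every value is a level in stimulated cytosolic RNA, and no test between conditions was possible.

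Splicing joins the exons of a transcript and removes the introns between them. An intron that stays in an otherwise mature transcript is called retained. Such transcripts are often held in the nucleus or degraded by nonsense-mediated decay when the intron brings in a stop codon, and in macrophages and other immune cells retention is known to change during differentiation and activation. GENCODE also uses the class retained_intron for partial models that contain only a piece of intron, so membership of the class does not by itself mean that a whole intron is present.

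The label of the set was therefore checked against the annotation (GENCODE M21, genome build mm10). For each gene the retained_intron transcript of highest mean TPM, here the leading transcript, was compared with all coding transcripts of the gene. In 36 of the 58 genes 1 transcript held 90% or more of the retained_intron TPM. In the other genes the structure described covers less of the share. In 11 of the 58 genes (19.0%) it contained a complete intron that no coding transcript has as exon, against 16.5% of the 528 genes with a share of 10 to 50% and 27.7% of the 3535 other expressed genes with a retained_intron transcript. These were Rps20, Mrps26, Tmem132a, Prelid1, Ncl, Tap2, Cd83, Arsa, Pirb, Tmem214 and Tbc1d17. In 43 it had bases outside the coding exons but no complete intron, and in 4 (Vps16, Ppp1r3e, Aif1 and Dalrd3) every base also lay in a coding exon. In 10 genes, 50% or more of the TPM lay on transcripts with a complete intron. Where the leading transcript had none, other retained_intron transcripts could hold one, with 39.3% of the TPM in Taf10, 26.8% in Cep250 and 0% in Mrpl57. For all 58 genes the data show TPM assigned to annotated transcripts and not reads across an intron. In most of them the leading transcript holds no complete intron. The genes are therefore described below by the rule that chose them.

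The complete introns are shown first, because their bases lie in no coding exon. They are not the only difference from the leading coding transcript. The retained_intron transcript ended 3139 bases earlier in Rps20, 3301 in Mrps26 and 5776 in Ncl, but 4 in Cd83, 3 in Prelid1 and 52 in Arsa. Prelid1-202 also started 1519 bases downstream of the start of Prelid1-201, and Cd83-202 started 410 bases downstream of the start of Cd83-201. Arsa-201, the retained_intron transcript, had 2699 bases in 7 exons, against 3492 bases in 9 exons of the coding transcript Arsa-202. How much of each share rests on the intron bases was not tested. The first 6 and the last 3 intron bases are in capitals and the remainder is in lower case. Each is written 5′ to 3′ on the strand of the gene.
Cd83 intron 1, chr13:43785251-43785345, plus strand: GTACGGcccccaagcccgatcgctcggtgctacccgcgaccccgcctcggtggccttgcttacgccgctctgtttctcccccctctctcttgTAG
Rps20 intron 1, chr4:3835292-3835483, minus strand: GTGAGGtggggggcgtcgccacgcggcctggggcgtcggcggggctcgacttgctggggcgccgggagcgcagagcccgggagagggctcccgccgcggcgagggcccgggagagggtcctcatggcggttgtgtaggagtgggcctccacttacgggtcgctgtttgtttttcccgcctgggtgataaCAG
Prelid1 intron 3, chr13:55324445-55324526, plus strand: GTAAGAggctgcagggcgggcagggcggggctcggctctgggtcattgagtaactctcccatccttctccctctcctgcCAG
Mrps26 intron 2, chr2:130564228-130564307, plus strand: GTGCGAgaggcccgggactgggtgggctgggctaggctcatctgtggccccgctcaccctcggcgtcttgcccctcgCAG
Arsa intron 4, chr15:89474710-89474786, minus strand: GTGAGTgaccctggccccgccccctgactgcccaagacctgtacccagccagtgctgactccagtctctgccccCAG
Ncl intron 10, chr1:86352320-86352509, minus strand: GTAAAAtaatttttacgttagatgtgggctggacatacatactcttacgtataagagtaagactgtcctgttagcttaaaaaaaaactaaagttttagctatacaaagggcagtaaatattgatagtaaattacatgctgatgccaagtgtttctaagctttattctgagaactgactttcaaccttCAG

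The 11 genes held 12 such introns, since the leading Ncl transcript kept introns 9 and 10. All 12 began with GT and ended with AG, as did 1245 of 1268 introns of other expressed genes. All 12 lay between coding exons, as did 1195 of the 1268. Their median length was 176 bases, against 284.5 for 1268 introns found the same way in other expressed genes and 167 for the 97 of those in genes with a share of 10 to 50%. Their median GC content was 63.9%, against 50.8% in all others and 54.6% in the genes at 10 to 50%. The 2 Ncl introns were the exception in composition, at 32.6% and 32.5% GC, while the Cd83 intron had 67.4% and the Mrps26 intron 72.5%. In 4 genes (Cd83, Prelid1, Mrps26 and Arsa) the intron was the shortest of its coding transcript, against 322 of the 1268 introns and 36 of the 97. Read in frame from the annotated start codon, 10 of the 12 introns contained a stop codon. Of introns with a known frame, 1044 of 1172 did in other expressed genes and 77 of 91 in genes at 10 to 50%. In Cd83 the stop codon began at base 93 of 95, and in Ncl intron 10 at base 2. The Prelid1 and Mrps26 introns had no in-frame stop, and their lengths of 82 and 80 bases are not multiples of the codon length.

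The other leading transcripts often began inside an intron and ran on into the next coding exon. This held for 29 of the 58 genes (50%), against 24.4% of 3535 leading retained_intron transcripts of other expressed genes and 47.3% of the 528 genes with a share of 10 to 50%. The piece of intron had a median of 68 bases (range 1 to 175) in the 29 genes, 83.5 bases in the genes at 10 to 50% and 178.5 bases in all others. The 29 genes were Taf10, Mrpl57, Rps16, Usp15, Nmd3, Rfc2, Cep250, Aida, Rapsn, Ufm1, Mtx1, Il11ra1, Grcc10, Sri, Atp5j, Ndufab1, Pdcl3, Tbcb, Ccdc12, Atp6v1d, Ap1g2, Xpnpep1, Ppp1r14b, Zcchc24, Sart1, Zc3h7a, Becn1, Rinl and Slc35b4. The piece ended in AG, the acceptor end of an intron, in 28 of the 29, and in 858 of 864 in all others. Some short pieces of 5 to 19 bases are printed here, because these models have few bases outside the coding exons. A short stretch of Timm17a, which is not one of the 29, is added. Capitals mark the bases in no coding exon, and the lower-case bases are coding sequence.
Becn1-211, chr11:101295432-101295436, minus strand: TCCAGgtcactggagacctgtttgacatc
Mtx1-217, chr3:89209660-89209664, minus strand: TCTAGccctgcctccctggacgcctttgt
Sri-201, chr5:8059342-8059352, plus strand: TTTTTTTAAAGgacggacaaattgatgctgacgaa
Usp15-208, chr10:123127870-123127885, minus strand: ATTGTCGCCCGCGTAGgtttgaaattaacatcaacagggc
Ufm1-204, chr3:53863671-53863689, minus strand: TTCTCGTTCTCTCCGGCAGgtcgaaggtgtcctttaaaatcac
Timm17a-204, chr1:135309767-135309770, minus strand: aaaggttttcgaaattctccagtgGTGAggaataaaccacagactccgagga
The first 5 of these transcripts start with the last 5 to 19 bases of an intron. In the Timm17a transcript the bases in no coding exon are instead 4 at the end of its first exon, at transcript bases 70 to 73. In Slc27a1, Chic2, Dpm1, Gm21188, Ncapg2, Tsn, Dctn6, Trappc4, Rbm15, Rab8a, Elp5, Pcif1 and Capns1 the specific bases were arranged in other ways, for example only in the last exon in Chic2, Dpm1, Tsn and Rab8a.

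Across all 58 genes the leading transcript had a median of 79.5 bases in no coding exon (8.39% of its length), compared with 124 bases (14.7%) in the 528 genes with a share of 10 to 50% and 362 bases (41.5%) in all other expressed genes. In 15 genes (25.9%) there were fewer than 30 such bases, against 14.6% of the 528 genes and 4.07% of all others. The median length of the leading transcript was 692.5 bases in the set, 798.5 in the 528 genes and 897 in all others. It was under 600 bases in 24 of the 58 (41.4%), 29.4% of the 528 genes and 20.9% of all others. The genes at 10 to 50% thus lay between the set and the others in each of these measures. The 3′ untranslated region of the coding transcript was over 1000 bases in 25 genes (43.1%), against 37.1% of the 528 genes and 44.0% of all others. The leading retained_intron transcript ended 1000 or more bases before the leading coding transcript in 27 of the 58 genes. In 16 of these it held the end of the coding sequence. The other genes were not counted in this way. In 13 genes the leading retained_intron transcript carried the whole coding sequence, against 40 of the 528 genes and 282 of the 3535 others. TPM is corrected for length, so transcript length is not independent of the rule, and these features are given as a description without a test.

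**Figure D1:**
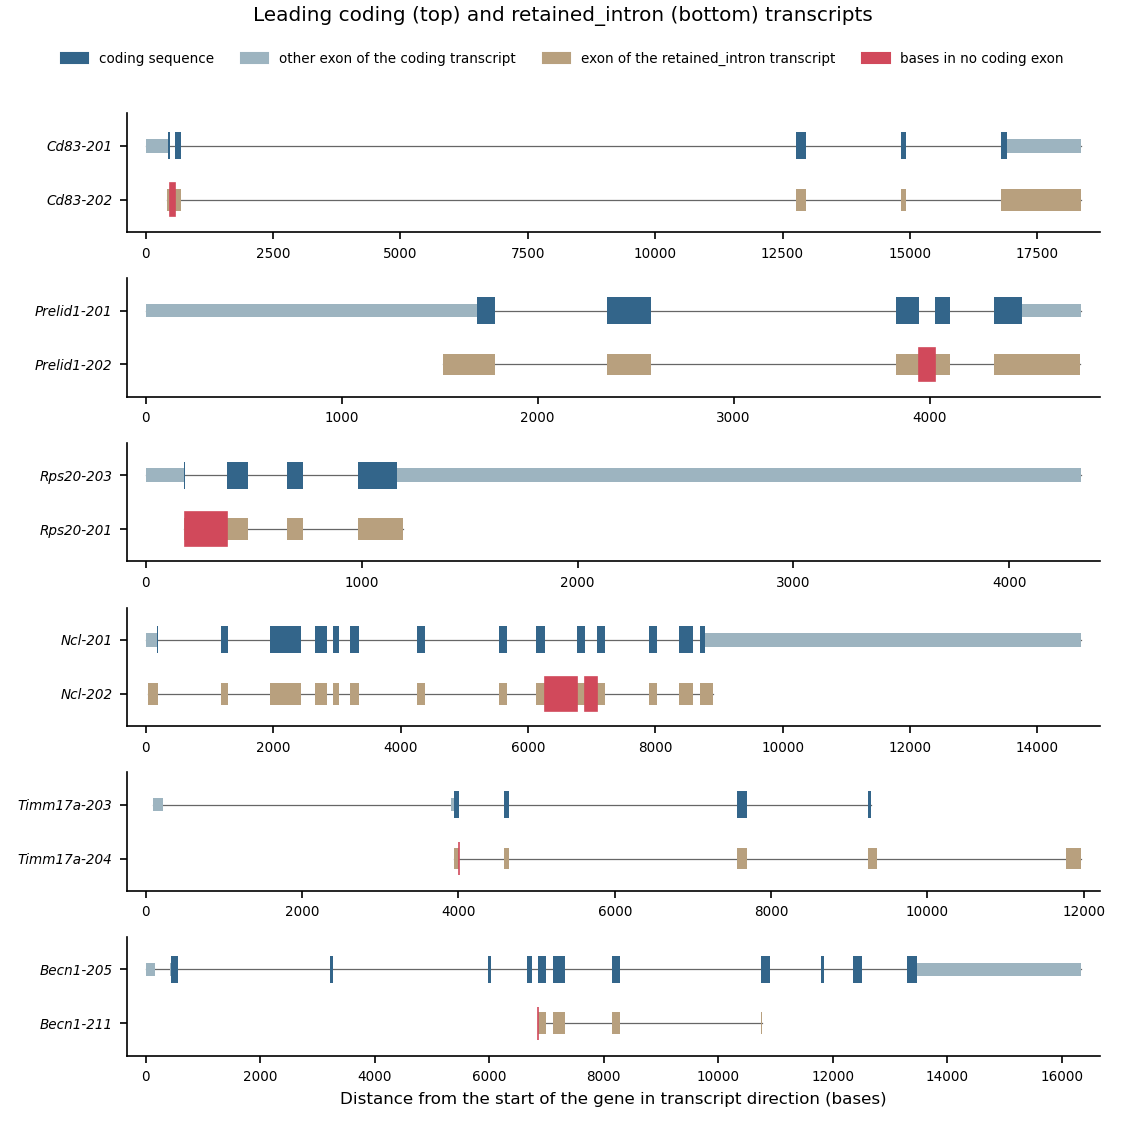
Exon maps of the leading coding transcript (upper row of each panel) and the leading retained_intron transcript (lower row) for 6 genes, with the distance from the start of the gene in bases on the x axis. Red marks bases that lie in no coding exon: a complete intron in Cd83, Prelid1, Rps20 and Ncl, 4 bases in Timm17a and 5 bases in Becn1.

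The 58 genes had a median retained_intron share of 62.5% in replicate 1, 63.7% in replicate 2 and 65.0% in replicate 3. These shares chose the genes and are a description. The mean shares ran from 50.03% (Slc35b4) to 96.1% (Taf10), 15 genes had 80% or more, and the median SD over the libraries was 2.78 points. Over all 5435 coding genes the median share was 0.354%, 0.949% and 0.321%. The share stood at or above 50% in every library in 46 of the 58. The 5 genes nearest inside the threshold were Slc35b4, Rinl (50.3%), Becn1 (51.3%), Zc3h7a (51.5%) and Sart1 (51.6%), and the 5 nearest outside were Acadsb (49.9%), Psmb8 (49.5%), Sugt1 (49.0%), Mtch1 (48.6%) and Ppp1r37 (48.4%). The set contributed 18.4%, 14.4% and 17.9% of all retained_intron TPM of the expressed coding genes in the 3 libraries, and 0.741%, 0.730% and 0.8005% of their whole TPM.

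**Figure D2:**
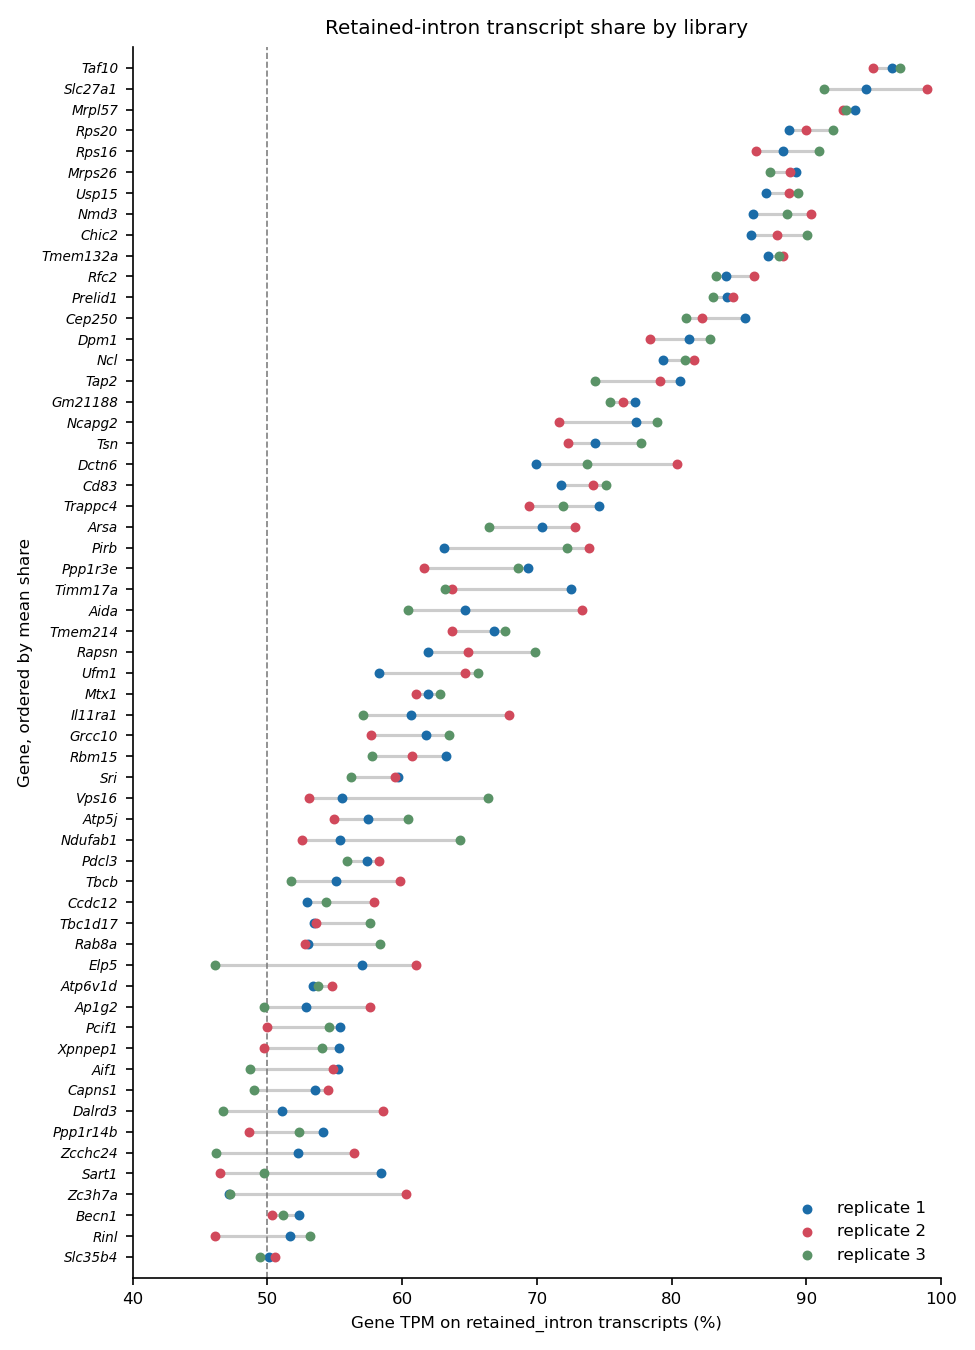
Percent of gene TPM on retained_intron transcripts (x axis) for the 58 genes, ordered by mean share, with 1 point for each library and a grey line from the lowest to the highest. The dashed line is the 50% threshold, which 46 genes met in every library.

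Cd83 was the only gene of the set on a list of 72 early lipid A response genes, of which 60 passed the level threshold. Over all 5435 expressed coding genes 58 were in the set, so 1 of 60 is near that share. Its product is a surface glycoprotein of activated dendritic cells, B cells and macrophages. The gene lies at chr13:43784775-43803132. Its level was 51.3, 63.6 and 120.1 TPM in replicates 1, 2 and 3. The retained_intron transcript Cd83-202 had 36.8, 47.2 and 90.3 TPM and the coding transcript Cd83-201 had 14.5, 16.5 and 29.8 TPM. The share was 71.8%, 74.1% and 75.2%, a mean of 73.7% ± 1.74 (SD, n = 3). Both transcripts were thus highest in replicate 3, while the share differed little. The authors' intervals for the 2 transcripts did not overlap in any library: in replicate 1 they ran from 35.0 to 37.8 TPM for Cd83-202 and from 13.2 to 15.4 TPM for Cd83-201. The level of these intervals is not given in the sources used here. Cd83-202 has 2158 bases against 2477 in Cd83-201, it holds the whole coding sequence and the 95 intron bases printed above, and it starts 410 bases downstream of the start of Cd83-201. The share was 70.6% ± 1.87 in expected counts and 66.5% ± 2.498 in the alignment-free tables, so it stayed above 50% in each readout.

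Genes with a known immune role, on none of the lists used, included Pirb, Tap2, Aif1 and Il11ra1. Pirb encodes an inhibitory paired immunoglobulin-like receptor of myeloid and B cells. Its level was 87.7, 89.5 and 120.0 TPM, and its share was 63.1%, 73.9% and 72.2%. In the alignment-free tables the share was 93.4%, 93.8% and 93.7%, higher in every library than by alignment. Receptors of the Pira and Pirb family have near-identical copies, so how reads were divided among them is uncertain. Tap2, a subunit of the peptide transporter for MHC class I, had a share of 78.0% ± 3.28 at 12.6 TPM. Exons of genes on the opposite strand overlap its leading transcript, as given below. Aif1, which encodes the macrophage protein Iba1, had 53.0% ± 3.66 at 58.5 TPM. The whole Aif1-205 transcript lies within coding exons, and its share was 39.9% ± 5.85 without alignment. Il11ra1, the interleukin-11 receptor subunit alpha, had 61.9% ± 5.51. Its share was 24.5% ± 4.88 in expected counts and 52.6% ± 7.24 without alignment.

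Rps16 and Rps20, which encode proteins of the small ribosomal subunit, had the highest levels of the set. Rps16 had 229.9, 177.8 and 309.9 TPM, with a share of 88.3%, 86.3% and 90.9%. Rps20 had 154.8, 144.3 and 250.1 TPM, with a share of 88.7%, 89.98% and 92.0%. Both were lowest in level in replicate 2 and highest in share in replicate 3. Ribosomal protein genes have many processed pseudogenes, so their read assignment is uncertain as well. The leading Rps16 transcript contains no complete intron and starts with 68 intron bases. Ncl encodes nucleolin, an abundant nucleolar protein, and had 37.1, 47.2 and 48.7 TPM with a share of 79.4%, 81.6% and 81.0%. The mitochondrial ribosomal genes Mrps26 and Mrpl57 had shares of 88.5% ± 1.018 and 93.1% ± 0.444 at levels of 6.96 and 11.8 TPM. Nmd3, an export adaptor of the large ribosomal subunit, had 88.3% ± 2.17.

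Some genes of the set, chosen here by function after their values were seen, encode mitochondrial proteins. Prelid1, a carrier of phosphatidic acid between the mitochondrial membranes, had 59.3, 57.1 and 69.4 TPM with a share of 84.1%, 84.6% and 83.1%. Its share therefore varied by an SD of only 0.765 points. Atp5j, a subunit of ATP synthase, had 57.6% ± 2.73 at 52.4 TPM. Ndufab1, the mitochondrial acyl carrier protein, had 57.4% ± 6.14. Timm17a and Mtx1, parts of protein import into mitochondria, had 66.5% ± 5.25 and 61.9% ± 0.896. Only Prelid1 and Mrps26 among the mitochondrial genes named here had a leading transcript with a complete intron.

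The other genes spanned many cell functions. Taf10, a subunit of the general transcription factor TFIID, had the highest share, with 96.3%, 94.99% and 97.0% at 39.9 ± 5.46 TPM. Slc27a1, a fatty acid transporter, followed with 94.4%, 99.0% and 91.3%. Capns1, the small subunit of the calpain proteases, had 91.3, 84.6 and 122.1 TPM and a share of 53.5%, 54.5% and 49.0%, so 1 library lay under the threshold. Becn1, a core autophagy gene, had 52.3%, 50.3% and 51.2%. Arsa, the lysosomal arylsulfatase A, had 69.9% ± 3.21. Membrane traffic was represented by Rab8a, Vps16, Ap1g2, Trappc4, Dctn6 and the proton pump subunit Atp6v1d, with mean shares from 53.4% (Ap1g2) to 74.7% (Dctn6). Rapsn, which clusters acetylcholine receptors at the neuromuscular junction, had 65.6% ± 4.03 at 8.76 TPM. Ncapg2, a condensin II subunit, had 76.0% ± 3.84 at 18.6 TPM. Tmem132a had 87.8% ± 0.594 at 54.0 TPM and Grcc10 had 61.0% ± 2.96 at 42.7 TPM. Gm21188, a predicted gene, had 76.4% ± 0.905 at 45.9 TPM.

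The least stable shares belonged to Elp5, Zc3h7a, Vps16, Aida and Sart1, with SDs of 6.16 to 7.72 points. Elp5, an Elongator subunit, had 57.03%, 61.0% and 46.1%. Zc3h7a, a zinc finger protein, had 47.1%, 60.2% and 47.2%, and only replicate 2 lay above 50%. Vps16, part of the endosomal tethering complexes, had 55.5%, 53.1% and 66.4%. Sart1, a splicing protein of the tri-snRNP, had 58.4%, 46.5% and 49.8%. The replicate with the highest share differed among these genes.

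A share in TPM weighs each transcript by its abundance, whereas a share in expected counts weighs it by its reads. In expected counts the median share of the 58 genes was 45.8% (range 5.95 to 96.0%), and 24 genes kept 50% or more. The leading retained_intron transcript was shorter than 50% of the leading coding transcript in 34 genes. The median ratio of coding to retained_intron length was 2.34 in the set. It was 2.81 in the 528 genes with a share of 10 to 50% and 2.31 in all others. Ufm1, a ubiquitin-like modifier, had a share of 62.9% ± 4.002 in TPM and 6.21% ± 1.15 in counts, with a transcript of 381 bases beside a coding transcript of 4890. Tsn, the nucleic acid binding protein translin, had 74.8% ± 2.76 in TPM and 13.8% ± 1.81 in counts. Sart1 had 5.95% ± 1.34 in counts. At the other end, Slc27a1 had 96.0% ± 2.98 in counts, and 5 genes had a higher share in counts than in TPM. The reads behind a gene's retained_intron transcripts ran from 84 to 15135 expected counts in replicate 1 and from 54 to 13374 in replicate 3, with medians of 759 and 609.

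The alignment-free tables, made from the same reads, gave a median share of 64.1% (range 22.0 to 97.1%). There 46 of the 58 genes had 50% or more, and 47 lay within 10 points of the alignment-based share. The largest falls were in Capns1 (52.3% to 22.0%), Slc27a1 (94.9% to 69.3%), Zcchc24 (51.6% to 29.4%), Ap1g2 (53.4% to 36.9%) and Aif1. The Zcchc24 transcript has 1 base outside the coding exons. The smallest differences were in Mrpl57 (93.1% and 93.2%), Vps16, Rps20 (90.2% and 90.7%), Tmem132a and Nmd3.

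The readouts are given here by structural class, without a test. Among the 11 genes with a complete intron, the median share was 78.0% in TPM, 67.7% in counts and 80.8% without alignment. Of these, 10 kept 50% in counts and 10 without alignment. The exceptions were Rps20 in counts, at 49.8% ± 5.40, and Tbc1d17, a GTPase-activating protein for Rab proteins, without alignment, at 46.4% ± 5.67. Among the 43 genes with specific bases but no complete intron, the medians were 61.0%, 40.2% and 63.5%, and 13 kept 50% in counts and 34 without alignment. The authors' interval of the leading retained_intron transcript was compared with that of the leading coding transcript. It lay above in every library in 10 of the 11, in 30 of the 43 and in 1 of the 4 genes with no specific bases. The rule chose all these genes on the same TPM, and the classes differ in median share (78.0%, 61.0% and 55.6%). These counts therefore depend on the selection and do not rank the classes.

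**Figure D3:**
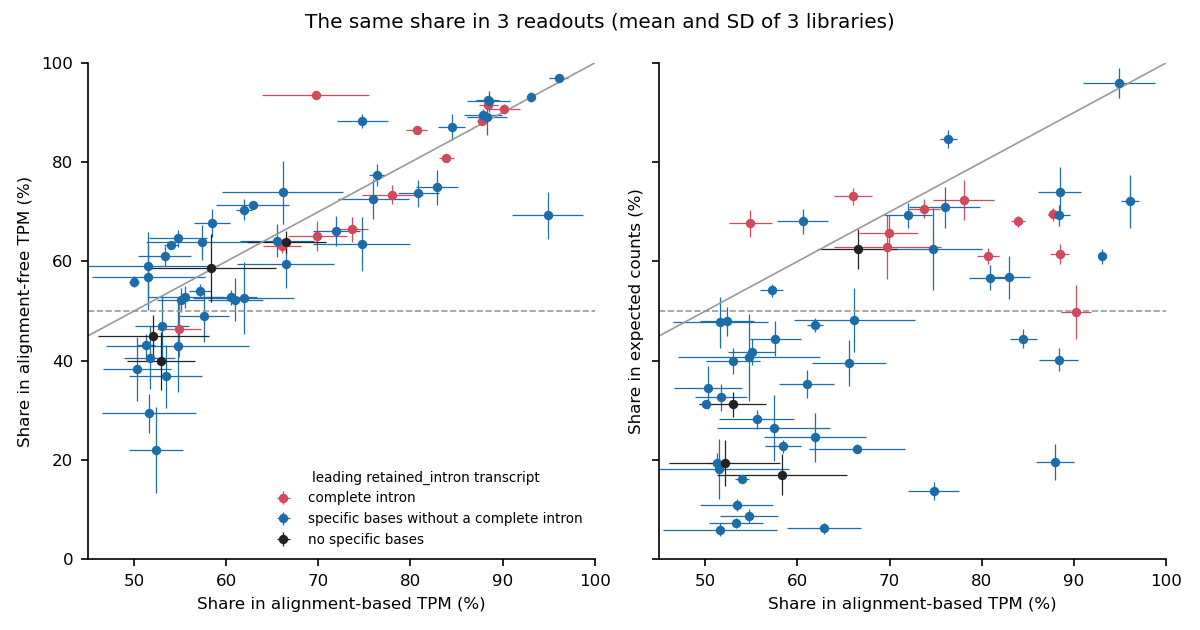
Share of each gene in alignment-free TPM (left) and in expected counts (right) against its share in alignment-based TPM, in percent, with points at the mean and bars of 1 SD over 3 libraries. The solid line marks equal values and the dashed line 50%, which 46 genes met on the left and 24 on the right, and colours give the structure of the leading retained_intron transcript.

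Exons of other genes overlapped the leading retained_intron transcript in 16 of the 58 genes, on the opposite strand in 14 and on the same strand in Dpm1 and Grcc10. The largest overlaps on the opposite strand were at Tap2 (Gm20496 or Gm15821, 533 bases), Tmem214 (Gm43808, 386 bases) and Dalrd3 (Wdr6, 379 bases). Other opposite genes included Mxd3 at Prelid1 (102 bases) and Slc15a3 at Tmem132a (225 bases). Overlap was not counted for genes outside the set. The sources used here do not state whether the counting used strand, so reads of these 16 genes and their partners may not be separable. Cd83, Rps16, Rps20, Ncl and Pirb had no such overlap.

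The replicate with the highest share was replicate 1 in 16 genes, replicate 2 in 22 and replicate 3 in 20. Replicate 2 was thus highest in 37.9% of the set. Among all 3504 expressed coding genes with any retained_intron TPM it was highest in 74.2%, and among the 528 genes with a share of 10 to 50% in 53.0%. The share in replicate 2 minus the mean of replicates 1 and 3 had a median of 0.345 points in the set, 1.10 points in all these genes and 2.47 points in the genes at 10 to 50%. Replicate 2 also held more nuclear RNA. Malat1, a nuclear long noncoding RNA, had 392, 1144 and 374 TPM in replicates 1 to 3, and the 6 nuclear RNAs listed summed to 427, 1267 and 417 TPM. The part of this difference in the order of the shares was not tested.

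**Figure D4:**
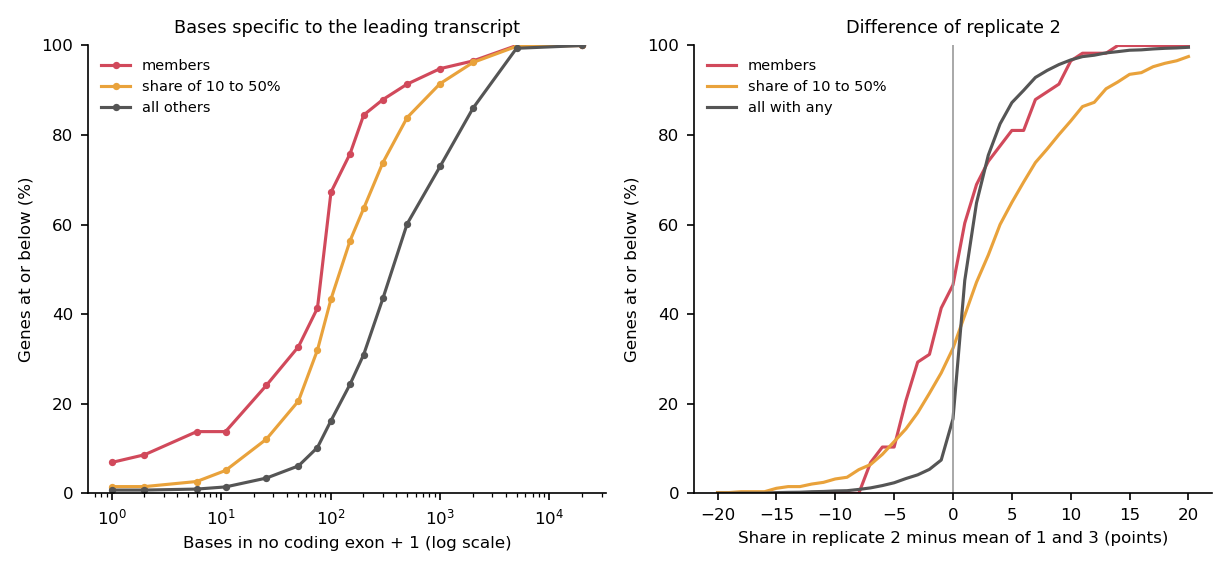
Cumulative percent of genes (y axes) against the bases of the leading retained_intron transcript in no coding exon, plus 1, on a log scale (left) and against the share in replicate 2 minus the mean of replicates 1 and 3, in points (right). The 58 genes (red) lie to the left of the other genes in the left panel, with medians of 79.5 and 362 bases. In the right panel the 58 genes have a median of 0.345 points and run from -7.84 to 13.1 points.

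Gene levels were compared between libraries as CPM, the counts divided by the library total, here scaled with TMM factors, since TPM shifts with the other RNAs of a library. Levels of 3 of the 58 genes were over 1.5-fold apart between the highest and the lowest library. Over all 12744 genes tested this held for 18.7%, and over the 5435 coding genes at 5 TPM or more for 4.56%, so the 3 genes are near the share found at like expression. Cd83 had 207, 239 and 363 CPM, a ratio of 1.75 between replicates 3 and 1. Rapsn had 13.9, 7.94 and 14.01 CPM (ratio 1.76), and Ncapg2 had 110.7, 79.1 and 132.7 CPM (ratio 1.68). Both of the latter were lowest in replicate 2, while Cd83 was lowest in replicate 1. Fewer cells of a state and less RNA per cell cannot be told apart in such bulk samples. By pairs, 1 gene (Rapsn, lower) passed 1.5-fold in replicate 2 over 1, where 10.9% of all 12744 genes passed. In replicate 3 over 1, 1 gene (Cd83, higher) passed, beside 6.45% of all genes. In replicate 3 over 2, 3 genes (all higher) passed, beside 15.1%. The pairs were not counted over the coding genes at 5 TPM or more, so these percents are not at like expression. The median ratio of highest to lowest library was 1.16 in the set, 1.18 over all genes tested and 1.13 over the coding genes at 5 TPM or more.

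**Figure D5:**
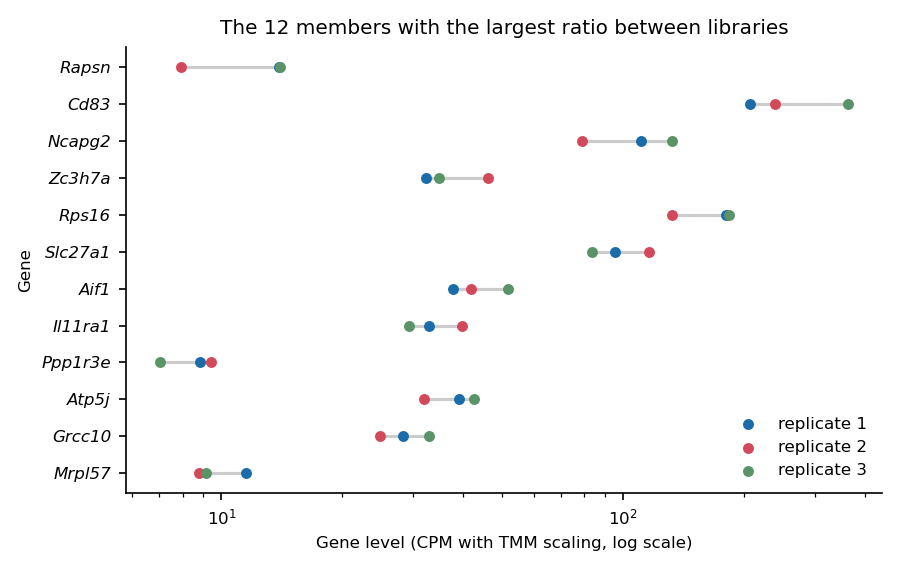
Gene level in CPM with TMM scaling on a log axis for the 12 genes of the set with the largest ratio between libraries, with 1 point for each replicate and a grey line over their range. Rapsn, Cd83 and Ncapg2 exceed a ratio of 1.5, and the next gene, Zc3h7a, has 1.42.

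Of the 60 expressed early lipid A response genes, 9 had a share of 10% or more and their median was 0%, beside 586 of 5435 and a median of 0.644% over all expressed coding genes. After Cd83 the highest were Clec4e, a C-type lectin receptor (36.8% ± 12.5), Sod2, the mitochondrial superoxide dismutase (33.8% ± 5.19), and Tnfaip3, the NF-κB inhibitor A20 (17.9% ± 8.10). Among 44 expressed genes of innate immune signalling none reached 50%, beside 58 of all 5435. Of the 44, 7 had 10% or more, and the highest were Irf3 (31.7%), Stat2 (20.8%) and Cd14 (15.5%). Rbm15, an RNA-binding subunit of the m6A methylation complex, had a share of 60.6% ± 2.76. It was the 1 gene of the set among 102 expressed RNA processing and splicing factors on the list used, beside 58 of all 5435. That list does not hold every such gene, since Sart1 is not on it. The leading Rbm15 transcript is a single exon of 5967 bases, of which 3080 lie in no coding exon. In that list 18 genes had 10% or more and the median was 3.06%, with Snrpa (35.4%), Nktr (32.5%) and Ythdc1 (31.7%) next.

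Of 13 expressed genes well known for regulated intron retention none was in the set, beside 58 of all 5435 genes, and 8 had a share of 10% or more, with a median of 13.5%. The highest were Nktr at 35.4%, 41.4% and 20.8%, Ccnl1, a cyclin of nuclear speckles, at 27.5%, 38.0% and 22.1%, and Ogt, the O-GlcNAc transferase, at 19.6%, 32.7% and 22.3%. All 3 were highest in replicate 2. Among 18 expressed aminoacyl-tRNA synthetases 2 had 10% or more, Vars (10.2%) and Qars (10.05%), beside 586 of all 5435 genes. None of the 16 macrophage markers was in the set, beside 58 of all 5435 genes, and their highest share was that of Cd14.

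The libraries held 53055764, 43620362 and 38623777 expected counts. All 16 macrophage markers reached 5 TPM in every library. Of other cell types, Hbb-bs and Hbb-bt of erythroid cells were listed at 0, Cd3e of T cells was at or below 0.01 TPM, while Cd4 had 24.4, 20.9 and 25.2 TPM, and the 4 neutrophil markers summed to 28.4, 49.1 and 32.0 TPM.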

How the data were processed

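Cytosolic RNA of stimulated macrophages was sequenced in 3 libraries of 1 group. For each library the authors deposited expected counts and TPM per gene and per transcript, made from transcriptome alignments, with an interval for each transcript TPM. They also deposited alignment-free estimated counts and TPM per transcript. The deposited text files name mm10 and GENCODE M21. The tools, their versions and any use of strand were not given in the sources used here. Rows that name no gene took 0.186%, 0.167% and 0.0396% of the counts and were left out.

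The share was the percent of a gene's summed transcript TPM on retained_intron transcripts, per library. Transcript structures and sequences came from GENCODE M21 (mm10). Levels used expected counts rounded to whole numbers, filterByExpr and TMM factors in edgeR 4.0.16 (R 4.3.3). The common biological coefficient of variation was 15.2%. DESeq2 1.42.0 size factors were an alternative. With 1 group no test was made, so no p-value is given. Python 3.11.15 with pandas 2.3.3 was used for the remainder, and both steps were run on simulated data. The simulated reads were already assigned to transcripts, so this checked the arithmetic of the shares and not the assignment of reads. The simulated gene levels varied less between libraries than the data.

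The members and gene lists were chosen with earlier results of these data known. Named were Cd83, the 12 genes of highest level, the 5 of highest share, the 5 on each side of the threshold, the 5 of largest SD, the 5 of largest fall and the 5 of smallest difference in the alignment-free tables, the 5 of largest ratio between libraries, the set's genes on a list, and the 3 highest others per list. Other names were chosen after their values were seen, by function or structure.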

Additional observations from a re-analysis of the deposited data

How the results depend on the processing

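No paired analysis was possible because all libraries belong to 1 group. The number of genes was 58. It was 30 with expected counts in place of TPM (24 shared), 104 and 34 at thresholds of 40% and 60%, 89 at a level floor of 1 TPM, and 207 when processed_transcript and nonsense_mediated_decay transcripts were added. The alignment-free tables also gave 58 genes, of which 46 were shared, and the other planned choices gave 42 to 58. Leaving out 1 library at a time gave 55 to 66 genes. The median share of the set was 64.2%, and it was 45.8% in expected counts and 64.1% without alignment. Leaving out 1 library gave medians of 62.6% to 64.3%. The percent of genes highest in replicate 2 was 37.9%, and ran from 29.3% (alignment-free) to 46.6% (counts). The 3 genes over 1.5-fold apart were also 3 with DESeq2 size factors, library size alone, other count filters and alignment-free counts, and 0 (edgeR scaling) passed a fold of 2. Leaving out 1 library gave 1 to 3 genes: Cd83 alone without replicate 2, Rapsn alone without replicate 3.

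Chosen after seeing the data were 3 alternatives. With posterior mean TPM the set had 56 genes (54 shared). Counting only transcripts with a complete intron left 10 genes. Without the 16 genes that overlap other genes' exons, the median share was 62.4%, replicate 2 was highest in 35.7%, and 3 genes passed 1.5-fold.

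Where few bases distinguish a pair of transcripts, few reads can tell them apart, which limits these values. The deposited tables hold no reads over junctions or introns, so retention of an intron was not measured directly. The spread over 3 libraries does not include error shared by all of them.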
